A study of Homo sapiens with 9 samples.

Results

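Collagen chain genes were examined across 9 RNA libraries of HEK293T cells, a human embryonic kidney line. The members are the genes whose symbol is COL, a number, A and a number, and 44 of the 19969 symbols in the count table have that form. COL4A3BP, which encodes a ceramide transfer protein and no collagen, falls outside it. The groups were cells with an FHY1-M3 construct and an ACTB sgRNA (guide RNA, n = 2), FHY1-M3 with a con sgRNA (n = 2), FHY1-M3 with a non-target sgRNA (n = 2), and input libraries (n = 3), for which the labels name no construct or guide. The series is about light-controlled editing of N6-methyladenosine, a methyl mark on RNA. Which light a culture received is not in the labels, nor is it stated if an FHY1-M3 library was made from total RNA or from an immunoprecipitate, and in the count table the con columns also carry ACTB in their name. All libraries are of 1 cell line, and no label ties a replicate to a culture of its own, so the spread behind each p-value may be purely technical. In bulk RNA, fewer cells that make a transcript and less of it per cell cannot be told apart.

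Collagens are secreted or membrane-bound proteins of the extracellular matrix, built from alpha chains that wind around each other in a triple helix. A chain is written by its type and number, so that COL5A1 encodes the alpha-1 chain of type V. Fibrillar types form the cables of tissue, type IV forms the mesh of basement membranes, and type VI forms beaded filaments around cells. Others sit on the surface of fibrils (FACIT collagens), span the cell membrane, or carry long sugar chains in basement membranes (multiplexins). Chains are hydroxylated and glycosylated in the endoplasmic reticulum, folded with the help of chaperones such as SERPINH1, trimmed outside the cell and crosslinked.

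The FHY1-M3 libraries held 2900021 to 3802681 counts and the inputs 350413 to 643954, a ratio of median totals of 9.29. The chains took 24391 counts over the 6 FHY1-M3 libraries and 907 over the 3 inputs, so each input value rests on few reads. Levels are in CPM, the usual depth-scaled count, after TMM scaling of the 9 libraries. The reference tables give no transcript lengths, so an order of chains by CPM, and a sum over chains, says which hold counts and not which transcript is more abundant. Of the 286 collagen counts above 0, 88.1% were even, so a fragment appears to add a pair of counts. Counting intervals and floors are therefore set on fragments, at 2 counts each, and cover counting error only. For the cell type check, the neurofilament genes NEFL and NEFM, known to be made in HEK293 cells, summed to 286 to 364 CPM in the FHY1-M3 libraries and 278 to 397 CPM in the inputs. The 8 fibroblast markers summed to 76.5 to 117 CPM in the FHY1-M3 libraries and 69.4 to 91.0 CPM in the inputs, and FBLN1 held nearly all counts. Over the FHY1-M3 libraries LUM had 60 counts, PDGFRA 32, PDGFRB 24, THY1 18, POSTN 8, FAP 4 and DCN 0. In the inputs LUM and PDGFRA had 6 counts each, POSTN 4, PDGFRB and DCN 2 each, and THY1 and FAP 0. The 5 endothelial markers summed to 0 to 3.12 CPM in the FHY1-M3 libraries and 5.23 to 17.4 CPM in the inputs, where each held at most 4 counts a library. The 4 epithelial markers summed to 45.0 to 70.4 CPM in the FHY1-M3 libraries and 60.7 to 83.7 CPM in the inputs, and the 4 blood markers had 0 counts in the FHY1-M3 libraries and 2 in the inputs.

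HEK293T cells held counts of many chains, but a few chains held most of them. Counts were found in all 9 libraries for 16 of the 44 chains, in 1 to 8 libraries for 26 and in none for 2. At a mean of at least 1 CPM, 34 chains were detected in the FHY1-M3 libraries and 39 in the inputs, where that level stands for only 1.34 counts over the group. At 5 CPM the numbers were 23 in the FHY1-M3 libraries and 22 in the inputs. The 12 chains with the highest mean CPM held 87.8% of collagen counts in the FHY1-M3 libraries and 78.1% in the inputs. They were COL5A1, COL27A1, COL1A1 and COL2A1 of the fibrillar class, COL4A1, COL4A2, COL4A5 and COL4A6 of type IV, COL6A1 and COL6A2 of type VI, the multiplexin COL18A1 and the transmembrane chain COL25A1. COL1A2, the partner of COL1A1 in type I collagen, and COL28A1 had 0 counts in every library, and a floor of 3 fragments over all 9 libraries would be 0.266 CPM. COL11A1, COL22A1, COL9A1 and COL8A2 had counts in 1 library each, between 2 and 4.

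**Figure D1:**
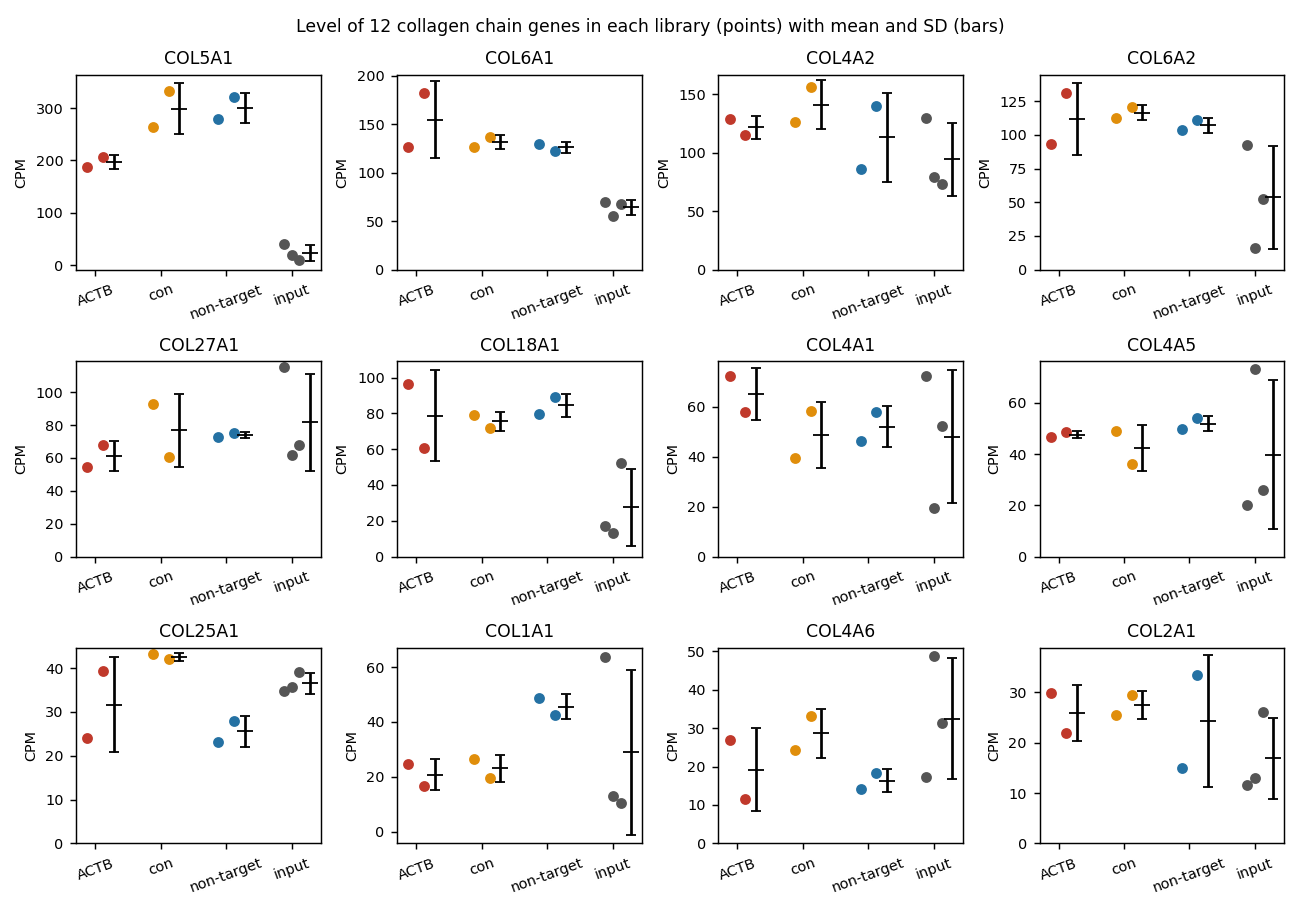
Level in CPM (linear vertical axis) of the 12 collagen chain genes with the highest mean, in the ACTB, con and non-target sgRNA libraries and the inputs; points are libraries and black bars the mean and SD of a group. COL5A1, COL6A1, COL6A2 and COL18A1 are higher in every sgRNA library than in every input. COL5A1 is lower in both ACTB-guide libraries than with the other guides. In edgeR this difference passed against the non-target guide and not against the con guide, and the call was lost with all 9 libraries in the fit.

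As a share of all counts, the chains took 0.108% ± 0.00377 in ACTB-guide cells, 0.120% ± 0.00674 in con-guide cells, 0.118% ± 0.0100 in non-target-guide cells (SD, n = 2 each) and 0.0678% ± 0.0144 in the inputs (SD, n = 3). Without COL5A1 the share was 0.0887% ± 0.00350 over the FHY1-M3 libraries (n = 6) and 0.0656% ± 0.0130 in the inputs. COL5A1 alone made up 23.2% of the collagen counts in the FHY1-M3 libraries and 3.31% in the inputs. Fibrillar chains summed to 416 ± 77.1 CPM in the FHY1-M3 libraries and 176 ± 71.2 CPM in the inputs, a difference that rests on COL5A1. The other 10 fibrillar chains summed to 151 ± 24.5 CPM in the FHY1-M3 libraries and 153 ± 55.8 CPM in the inputs. Type VI chains summed to 261 ± 30.9 CPM in the FHY1-M3 libraries and 132 ± 34.4 CPM in the inputs, and multiplexins to 80.6 ± 12 CPM in the FHY1-M3 libraries against 29.5 ± 20.4 CPM in the inputs. Type IV chains summed to 258 ± 34.7 CPM in the FHY1-M3 libraries and 231 ± 26.7 CPM in the inputs, with an overlap between the groups. Transmembrane chains came to 49.7 ± 12.7 CPM under FHY1-M3 against 49.97 ± 9.77 CPM in the inputs, and FACIT chains to 48.7 ± 11.9 CPM under FHY1-M3 against 54.4 ± 21.3 CPM in the inputs.

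**Figure D2:**
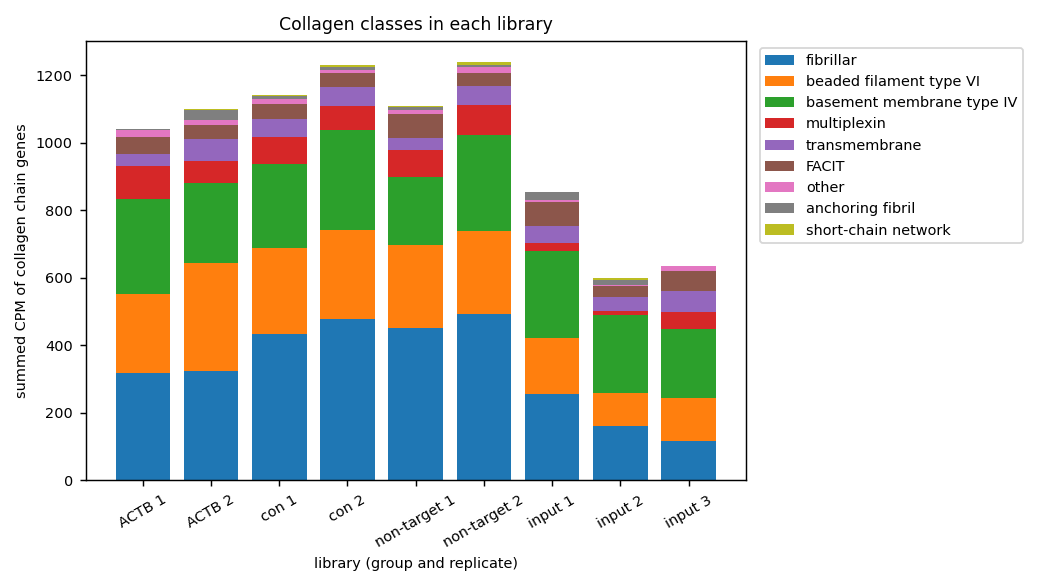
Summed CPM of the 44 collagen chain genes by class (stacked colours) in each library, by guide and replicate. The fibrillar segment is 317 to 493 CPM in the sgRNA libraries and 115 to 254 CPM in the inputs (without COL5A1, 116 to 173 CPM in the sgRNA libraries and 105 to 214 CPM in the inputs), while the type IV segment is 202 to 294 CPM in the sgRNA libraries and 204 to 257 CPM in the inputs.

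The FHY1-M3 libraries were compared with the inputs in a fit of all 9 libraries, with the mean of the 3 guides set against input. Of the 44 chains 35 passed the filter on low counts. COL5A1, COL6A1, COL6A2 and COL18A1 rose, none fell, and 31 did not pass an adjusted p of 0.05. Over all 13411 genes tested, 11.4% passed as higher and 8.6% as lower. The 4 of 35 chains that rose are thus close to the share of all genes. The median log2 fold change was 0.14 over the 35 chains and 0.04 over all genes. Between the FHY1-M3 libraries and the inputs 5 chains did not overlap, all higher, where 14.9% of all genes were higher throughout, and 0 were lower throughout, where 8.51% of all genes were. The depth gap between these groups is large, and its part in the differences was not tested beyond thinning the FHY1-M3 libraries to 462026 counts, after which the same number of chains, 4, rose.

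COL5A1 encodes the alpha-1 chain of type V collagen, a minor fibrillar collagen that starts and limits the width of type I fibrils (chromosome 9, 134641803 to 134844843, GRCh38.p14). It stood at 188 and 206 CPM in ACTB-guide cells, 264.7 and 333.2 CPM in con-guide cells, 279 and 320 CPM in non-target-guide cells, and 40.5, 19.5 and 10.5 CPM in the inputs. Every FHY1-M3 library lay far above every input. The log2 fold change was 3.53 (SE 0.26), or 11.5-fold, with an adjusted p of 1.81e-13, rank 50 among all genes by p. It ranged from 3.23 to 4.03 when each library was left out. It overlaps no other gene of the count table, though RefSeq places the antisense gene COL5A1-AS1 within it. COL5A2, its usual partner, was at 6.63 and 6.36 CPM in ACTB-guide cells, 14.0 and 16.3 in con-guide cells, 11.8 and 7.52 in non-target-guide cells and 0, 13.0 and 0 CPM in the inputs. Its groups overlapped and its log2 difference of 0.91 (SE 0.87, interval -0.87 to 2.68) did not pass. COL5A3 had 6 counts in the FHY1-M3 libraries and 6 in the inputs and was not tested.

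The 250 bases before the COL5A1 start, on the plus strand at chr9:134641553-134641802 (RefSeq, GRCh38.p14), are shown because COL5A1 had the smallest p of the chains. Capitals mark GC boxes, GGGCGG or its reverse complement CCGCCC, and CCAAT boxes, CCAAT or ATTGG, both strands searched and no match overlapping another.
COL5A1: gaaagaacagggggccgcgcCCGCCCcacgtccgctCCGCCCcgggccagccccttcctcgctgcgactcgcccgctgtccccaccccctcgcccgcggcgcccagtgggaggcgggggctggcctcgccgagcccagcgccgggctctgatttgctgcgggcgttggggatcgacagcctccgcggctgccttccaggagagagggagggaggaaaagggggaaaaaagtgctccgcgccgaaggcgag
The stretch holds 2 GC boxes and 0 CCAAT boxes, and 74% of its bases are G or C. Of 35116 windows of 250 bases before a gene start, 42.6% hold a GC box and 32% a CCAAT box. A match describes the letters and is not evidence of binding.

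COL6A1 and COL6A2 encode the alpha-1 and alpha-2 chains of type VI collagen, which assemble with a further chain into the beaded filaments around cells. COL6A1 (chromosome 21, 45981770 to 46005048) stood at 127 and 183 CPM in ACTB-guide cells, 127 and 137 CPM in con-guide cells, 130 and 122 CPM in non-target-guide cells, and 69.4, 55.3 and 68.0 CPM in the inputs. All 6 FHY1-M3 libraries were above all 3 inputs, which lay close together. The log2 fold change was 1.11 (SE 0.23, adjusted p = 0.000579). COL6A2 (46098112 to 46132848) stood at 92.8 and 131 CPM in ACTB-guide cells, 112 and 120 CPM in con-guide cells, 103 and 111 CPM in non-target-guide cells, and 92.5, 16.3 and 52.3 CPM in the inputs. Its log2 fold change was 1.17 (SE 0.32, adjusted p = 0.00699), but the highest input lay within 1 CPM of the lowest FHY1-M3 library. Input replicate 2 decides this call: without it the log2 fold change of COL6A2 was 0.63 with an adjusted p of 0.13, and over all its alternatives the adjusted p ran up to that value. COL6A3, the usual chain to complete type VI, was at 3.32 to 13.8 CPM in all FHY1-M3 libraries and 0, 16.3 and 2.61 CPM in the inputs, with a log2 difference of 0.05 (SE 0.91, interval -1.8 to 1.89). COL6A5 and COL6A6 held at most 24 counts in any library and did not pass.

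COL18A1 encodes a multiplexin of basement membranes whose end fragment is endostatin (chromosome 21, 45405165 to 45513720). It stood at 96.7 and 60.7 CPM in ACTB-guide cells, 79.3 and 71.9 CPM in con-guide cells, 79.8 and 89.2 CPM in non-target-guide cells, and 17.4, 13.0 and 52.3 CPM in the inputs. The groups did not overlap, with input replicate 3 nearest to the FHY1-M3 libraries. The log2 fold change was 1.60 (SE 0.37, adjusted p = 0.00181) and was 1.16 to 2.43 when each library was left out, with adjusted p up to 0.038. The value was 2.43 without input replicate 3 and 1.16 without input replicate 2. The gene overlaps SLC19A1, a folate carrier gene, and without a stated strand setting their reads cannot be told apart in the shared stretch. SLC19A1 itself had a log2 difference of 0.60 with an adjusted p of 0.167. The other multiplexin, COL15A1, had 20 counts in the FHY1-M3 libraries and 2 in the inputs.

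COL18A1, COL6A1 and COL6A2 lie within 728 kb of each other near the end of chromosome 21. In that stretch with 1 Mb on each side, 18 other genes were tested, of which 3 rose and 2 fell, with a median log2 difference of 0.24. Around COL5A1, 11 other genes within 1 Mb were tested, of which 1 rose and 1 fell, with a median of 0.45. Over all genes tested 11.4% rose and 8.6% fell, with a median of 0.04. These stretches were chosen after the values were seen and are a description.

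**Figure D3:**
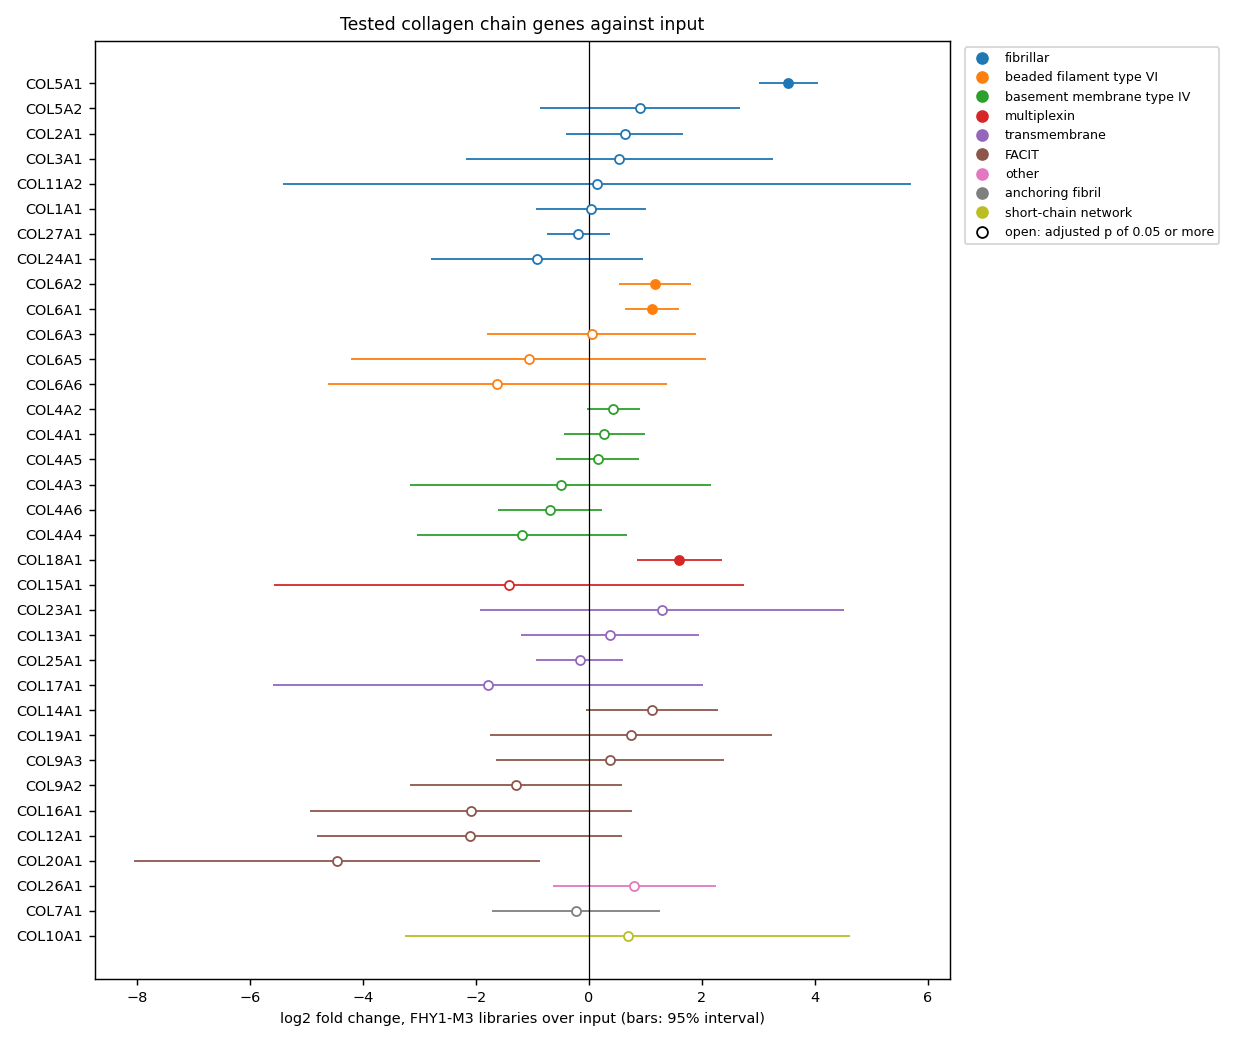
Log2 fold change with its 95% interval (horizontal axis) of the 35 tested collagen chain genes, FHY1-M3 libraries over input, coloured by class; filled points passed an adjusted p of 0.05. COL5A1 at 3.53, COL18A1 at 1.60, COL6A2 at 1.17 and COL6A1 at 1.11 are filled, and chains with few counts have intervals several units wide.

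Type IV chains are encoded in head-to-head gene pairs that share the DNA between their starts, and none of the 6 passed against input. COL4A1 and COL4A2 make the classical mesh of basement membranes. COL4A2 stood at 129 and 115 CPM in ACTB-guide cells, 126 and 156 CPM in con-guide cells, 86.5 and 140 CPM in non-target-guide cells, and 130, 79.6 and 73.2 CPM in the inputs. The groups overlapped through input replicate 1, and the log2 difference was 0.43 (SE 0.23, interval -0.04 to 0.90, adjusted p = 0.204). Without input replicate 1 it was 0.70 and passed, with an adjusted p of 0.0459, against up to 0.499 over its other alternatives. COL4A1 stood at 72.4 and 57.8 CPM in ACTB-guide cells, 39.5 and 58.2 CPM in con-guide cells, 46.2 and 57.8 CPM in non-target-guide cells, and 72.3, 19.5 and 52.3 CPM in the inputs. Input replicate 1 was near the highest FHY1-M3 library and input replicate 2 below them all, and the log2 difference was 0.27 (SE 0.35, interval -0.45 to 0.98).

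COL4A5 and COL4A6 encode chains of more specialised basement membranes, among them those of the kidney. COL4A5 was between 36.2 and 54.0 CPM in the FHY1-M3 libraries, with a median of 48.7 CPM, and at 20.2, 73.1 and 26.1 CPM in the inputs. COL4A6 was between 11.6 and 33.1 CPM in the FHY1-M3 libraries, with a median of 21.3 CPM, and at 17.4, 48.8 and 31.4 CPM in the inputs. Input replicate 2 was the highest library for both genes of the pair. The log2 difference was 0.16 for COL4A5 (SE 0.36, interval -0.58 to 0.89) and -0.69 for COL4A6 (SE 0.45, interval -1.61 to 0.23). COL4A3 and COL4A4, mutated in Alport syndrome as COL4A5 is, held few counts, with 70 and 108 over the FHY1-M3 libraries and 6 and 14 over the inputs. COL4A4 overlaps RHBDD1, and neither chain passed.

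The DNA between the starts of each pair (RefSeq, GRCh38.p14, plus strand) is shown because 1 stretch precedes both genes. The stretches are chr13:110307158-110307283 for COL4A1 and COL4A2, chrX:108439588-108439837 for COL4A5 and COL4A6, which is the 250 of 379 bases next to COL4A5, and chr2:227164489-227164623 for COL4A3 and COL4A4. Capitals mark GC boxes and CCAAT boxes as before.
COL4A1 and COL4A2: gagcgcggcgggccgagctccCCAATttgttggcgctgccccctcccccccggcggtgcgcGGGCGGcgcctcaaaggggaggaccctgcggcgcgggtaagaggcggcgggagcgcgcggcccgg
COL4A5 and COL4A6: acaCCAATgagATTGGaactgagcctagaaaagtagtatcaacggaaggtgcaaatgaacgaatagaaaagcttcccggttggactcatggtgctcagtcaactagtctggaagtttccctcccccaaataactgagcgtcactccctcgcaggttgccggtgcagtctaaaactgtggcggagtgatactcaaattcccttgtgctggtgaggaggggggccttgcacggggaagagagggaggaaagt
COL4A3 and COL4A4: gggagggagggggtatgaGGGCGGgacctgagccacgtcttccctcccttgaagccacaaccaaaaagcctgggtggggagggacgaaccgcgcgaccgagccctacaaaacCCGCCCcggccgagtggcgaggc
The COL4A1 and COL4A2 stretch of 126 bases holds 1 CCAAT box and 1 GC box, which 21.1% and 34.6% of windows of that length hold. The COL4A5 and COL4A6 stretch holds 2 CCAAT boxes and 0 GC boxes, where 32% and 42.6% of such windows hold them, and the COL4A3 and COL4A4 stretch of 135 bases holds 0 CCAAT boxes and 2 GC boxes, where 22.1% and 35.5% of such windows hold the motifs. The share of G and C was 80.2% between COL4A1 and COL4A2, 51.2% beside COL4A5 and 68.1% between COL4A3 and COL4A4.

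Among the other chains of the 12 with the highest mean CPM, none passed against input. COL27A1, a fibrillar chain of cartilage, stood between 54.7 and 92.6 CPM in the FHY1-M3 libraries, with a median of 70.1 CPM, and at 116, 61.8 and 68.0 CPM in the inputs (log2 -0.19, SE 0.27, interval -0.74 to 0.36). COL1A1, the main chain of type I collagen, stood between 16.8 and 48.9 CPM in the FHY1-M3 libraries, with a median of 25.7 CPM, and at 63.6, 13.0 and 10.5 CPM in the inputs (log2 0.03, SE 0.48, interval -0.94 to 1.004). The inputs of COL1A1 thus lay on both sides of all FHY1-M3 libraries, and its sign changed between alternatives. COL2A1, the collagen of cartilage, was between 15.0 and 33.5 CPM in the FHY1-M3 libraries, with a median of 27.4 CPM, and at 11.6, 13.0 and 26.1 CPM in the inputs (log2 0.63, SE 0.51). COL25A1, a transmembrane collagen of neurons, was between 23.1 and 43.2 CPM in the FHY1-M3 libraries, with a median of 33.7 CPM, and at 34.7, 35.8 and 39.2 CPM in the inputs (log2 -0.17, SE 0.38). For COL25A1 the inputs fell inside the range of the FHY1-M3 libraries. For COL2A1, input replicates 1 and 2 lay below every FHY1-M3 library and input replicate 3 inside their range. The interval of its log2 difference was -0.40 to 1.66. COL14A1, a FACIT collagen outside those 12, was at 15.72 to 41.6 CPM in all FHY1-M3 libraries and 11.6, 6.50 and 15.68 CPM in the inputs. The groups did not overlap but nearly touched, since 1 count in input replicate 3 is 2.61 CPM. COL14A1 rested on 14 input counts and did not pass (log2 1.11, SE 0.57, adjusted p = 0.177).

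The remaining chains held few counts. COL26A1, COL7A1, COL13A1, COL9A2, COL24A1, COL9A3, COL19A1 and COL3A1 held 103 to 297 counts over the 6 FHY1-M3 libraries and 4 to 18 over the inputs, and none passed. COL12A1, COL16A1, COL23A1, COL10A1, COL11A2, COL17A1 and COL20A1 held 22 to 76 counts over the FHY1-M3 libraries and 2 to 10 over the inputs, and none passed. At an unadjusted p under 0.05 there were 5 of 35 chains, against 31.9% of all genes, and COL20A1 was the one of them below input. It held 28 counts in con sgRNA replicate 1, 0 in the other FHY1-M3 libraries and 6 over the inputs, so no fold is given. COL8A1, COL21A1 and the 4 chains with counts in 1 library held at most 14 counts over the FHY1-M3 libraries and 2 over the inputs, and with COL5A3, COL1A2 and COL28A1 make up the 9 chains that were not tested. COL10A1 overlaps NT5DC1 and COL9A3 overlaps TCFL5 in the count table.

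Between guides, 29 of the 44 chains were tested in a fit of the 6 FHY1-M3 libraries. Relative to the non-target guide, COL5A1 fell under the ACTB guide, while the other 28 chains did not pass. COL5A1 averaged 197 ± 12.8 CPM in ACTB-guide cells and 300 ± 29.1 CPM in non-target-guide cells (SD, n = 2 each). The log2 fold change was -0.60 (SE 0.14, interval -0.88 to -0.32, adjusted p = 0.0373), which is 0.659 of the non-target level. Of all 12808 genes tested 0.25% passed, 0.195% as lower and 0.0547% as higher. The direction was kept without each library, at -0.70 to -0.50, but the call was lost without either ACTB sgRNA replicate (adjusted p = 0.391 and 0.203) or either non-target replicate (0.0861 and 0.249). It was also lost with all 9 libraries in the fit (adjusted p = 1), and its lowest adjusted p among the alternatives was 0.00465. COL1A1 stood at 24.9 and 16.8 CPM in ACTB-guide cells and 48.9 and 42.4 CPM in non-target-guide cells, and did not pass (log2 -1.13, SE 0.41, adjusted p = 0.466). COL11A2 had 2 counts over the ACTB sgRNA libraries and 36 over the non-target libraries, of which 32 were in replicate 1, a ratio of 0.0526 with a 95% counting interval of 0.00126 to 0.333 on 1 and 18 fragments, and did not pass (adjusted p = 0.614). At an unadjusted p under 0.05 in either direction there were 3 of 29 chains (10.3%), against 7.82% of all genes. All 3 chains were lower, as were 518 of the 12808 genes.

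Against con sgRNA, 0 of 29 chains passed for the ACTB sgRNA in the edgeR quasi-likelihood test, where 0.0312% of all genes passed in either direction, and 1 had an unadjusted p under 0.05, against 3.86% of all genes. That chain was COL5A1, at 197 ± 12.8 CPM in ACTB-guide cells and 299 ± 48.5 CPM in con-guide cells (SD, n = 2 each). Its log2 difference was -0.60 (SE 0.14, interval -0.88 to -0.32, adjusted p = 0.161), nearly the value against the non-target sgRNA, and these comparisons share the ACTB sgRNA libraries. DESeq2 called it (adjusted p = 0.0352), as did edgeR without the low-count filter (0.023), with a range of 0.023 to 1 over its alternatives. COL5A2 was at 6.63 and 6.36 CPM in ACTB-guide cells and 14.0 and 16.3 CPM in con-guide cells (log2 -1.21, SE 0.71, adjusted p = 1). COL6A3 was at 3.32 and 4.63 CPM in ACTB-guide cells and 13.8 and 6.82 CPM in con-guide cells (log2 -1.36, SE 0.87, adjusted p = 1). Neither passed.

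Relative to the non-target guide, 0 of 29 chains passed for the con guide in edgeR or DESeq2, where edgeR called 0.172% of all genes in either direction, and 1 chain had an unadjusted p under 0.05, against 5.25% of all genes. COL5A1 averaged 299 ± 48.5 CPM in con-guide cells and 300 ± 29.1 CPM in non-target-guide cells. The log2 difference had an interval from -0.28 up to 0.27. COL1A1 was the chain under that unadjusted threshold, at 26.5 and 19.7 CPM in con-guide cells and 48.9 and 42.4 CPM in non-target-guide cells (log2 -0.98, SE 0.41, adjusted p = 0.825). The comparison of COL1A1 between ACTB and non-target sgRNA uses the same non-target libraries. COL25A1 was at 43.2 and 42.0 CPM in con-guide cells and 23.1 and 28.02 CPM in non-target-guide cells (log2 0.74, SE 0.39, adjusted p = 0.932). COL4A6 was at 24.2 and 33.1 CPM in con-guide cells and 14.2 and 18.5 CPM in non-target-guide cells (log2 0.81, SE 0.49, adjusted p = 0.932).

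The genes that process, export and bind collagen, 48 in the count table, moved in both directions against input. Of 45 tested, 4 rose, 5 fell and 36 did not pass, while 20% of all genes passed in either direction, so the share called was that of all genes. With median-ratio scaling 3 rose and 9 fell, and in DESeq2 4 rose and 8 fell. The share of all genes was taken in the TMM-scaled edgeR fit only, so these counts have none beside them. In that edgeR fit the median log2 difference of the 45 genes was 0.25, against 0.04 over all genes. SERPINH1 (HSP47), the collagen-specific chaperone of the endoplasmic reticulum and a heat shock protein, was between 181 and 207 CPM in the FHY1-M3 libraries, with a median of 196 CPM, and at 104, 81.3 and 88.9 CPM in the inputs (log2 1.11, SE 0.19, adjusted p = 3.58e-05). PLOD1, a lysyl hydroxylase, was between 88.4 and 111 CPM in the FHY1-M3 libraries, with a median of 98.6 CPM, and at 46.3, 29.3 and 62.7 CPM in the inputs (log2 1.14, SE 0.28, adjusted p = 0.00344). P4HB, the beta subunit of prolyl 4-hydroxylase, was between 586 and 684 CPM in the FHY1-M3 libraries, with a median of 608 CPM, and at 341, 439 and 465 CPM in the inputs (log2 0.57, SE 0.11, adjusted p = 0.000245). These genes did not overlap between the groups. P3H3, of the prolyl 3-hydroxylase family, averaged 45.8 ± 6.28 CPM in FHY1-M3 libraries and 18.7 ± 11.9 CPM in the inputs (log2 1.20, SE 0.43, adjusted p = 0.0408), and lost its call under 11 alternatives, with adjusted p up to 0.194.

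The genes that fell included a partner of prolyl 3-hydroxylase and collagen receptors. CRTAP, which forms a complex with prolyl 3-hydroxylase 1, was between 139 and 224 CPM in the FHY1-M3 libraries, with a median of 193 CPM, and at 451, 363 and 439 CPM in the inputs (log2 -1.15, SE 0.14, adjusted p = 4.68e-08). DDR2, a receptor tyrosine kinase that binds fibrillar collagen, was between 70.0 and 122 CPM in the FHY1-M3 libraries, with a median of 99.2 CPM, and at 309, 193 and 246 CPM in the inputs (log2 -1.33, SE 0.18, adjusted p = 7.72e-07). For both genes every FHY1-M3 library was well below every input. ITGA1, a collagen-binding integrin subunit, averaged 9.49 ± 3.39 CPM in FHY1-M3 libraries and 33.5 ± 18.8 CPM in the inputs (log2 -1.79, SE 0.56, adjusted p = 0.02). Its call was lost without input replicate 1 (log2 -1.26, adjusted p = 0.185), after thinning (0.0734), and when the first ACTB-guide library (0.0573) or the first con-guide library (0.0501) was left out. ITGA11, another such subunit, had 28 counts over the FHY1-M3 libraries, 0 of them in non-target-guide cells, and 15 over the inputs, which is 1.24 ± 1.68 CPM and 10.95 ± 4.97 CPM. Its adjusted p was 0.0252 and was lost under 9 alternatives, up to 0.0975, and its fitted fold is not given since 1 group is at 0. SEC24D, of the coat that carries procollagen out of the endoplasmic reticulum, was the other gene that fell (log2 -0.90, SE 0.32, adjusted p = 0.0453). Its FHY1-M3 libraries lay between 30.4 and 62.2 CPM and its inputs at 57.8, 81.3 and 62.7 CPM, so the groups overlapped, and it lost its call under 11 alternatives, with adjusted p up to 0.206.

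By role, the prolyl 4-hydroxylases, lysyl hydroxylases and chaperones had 1 gene each that rose, 1 gene of prolyl 3-hydroxylation rose and 1 fell, 1 export gene fell, and the glycosyltransferases, procollagen proteinases (7 tested) and crosslinking enzymes (5 tested) had none that passed. Of the 8 tested receptors 3 fell and none rose, where 8.6% of all genes fell, and ITGA1 and ITGA11 among the 3 lost their call under 4 and 9 alternatives. ITGB1, the common partner subunit, averaged 123 CPM in FHY1-M3 libraries and 105 CPM in the inputs and did not pass. Between guides 0 of 43 tested genes passed in each comparison in edgeR and in DESeq2, with 4, 4 and 5 at an unadjusted p under 0.05 for ACTB against non-target, ACTB against con and con against non-target sgRNA. These are 9.3%, 9.3% and 11.6% of the genes, against 7.82%, 3.86% and 5.25% of all genes. PCOLCE2, which enhances trimming of procollagen, was at 39.0 and 35.9 CPM in ACTB-guide cells and 17.2 and 13.7 CPM in non-target-guide cells (log2 1.28, SE 0.44, adjusted p = 0.384). CRTAP was at 183 and 139 CPM in ACTB-guide cells and 224 and 209 CPM in non-target-guide cells (log2 -0.42, SE 0.16, adjusted p = 0.508). P4HA3 had 22 counts in ACTB sgRNA replicate 1, 0 in replicate 2 and 0 in con-guide cells (adjusted p = 1). Its summed level in ACTB-guide cells was 3.96-fold that of a floor of 3 fragments over the con group. That ratio takes the ACTB counts as exact, so it is no lower bound, and it rested on 1 library. P3H2 was at 6.08 and 17.4 CPM in ACTB-guide cells and 2.60 and 0.525 CPM in con-guide cells (log2 2.88, SE 1.25, adjusted p = 1), and its log2 value was 1.94 without ACTB sgRNA replicate 2 and 4.39 without con sgRNA replicate 1. DDR1 was at 46.3 and 50.4 CPM in con-guide cells and 28.2 and 13.7 CPM in non-target-guide cells (log2 1.20, SE 0.40, adjusted p = 0.722). PLOD2 was at 59.3 and 79.2 CPM in con-guide cells and 113 and 111 CPM in non-target-guide cells (log2 -0.69, SE 0.23, adjusted p = 0.722).

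**Figure D4:**
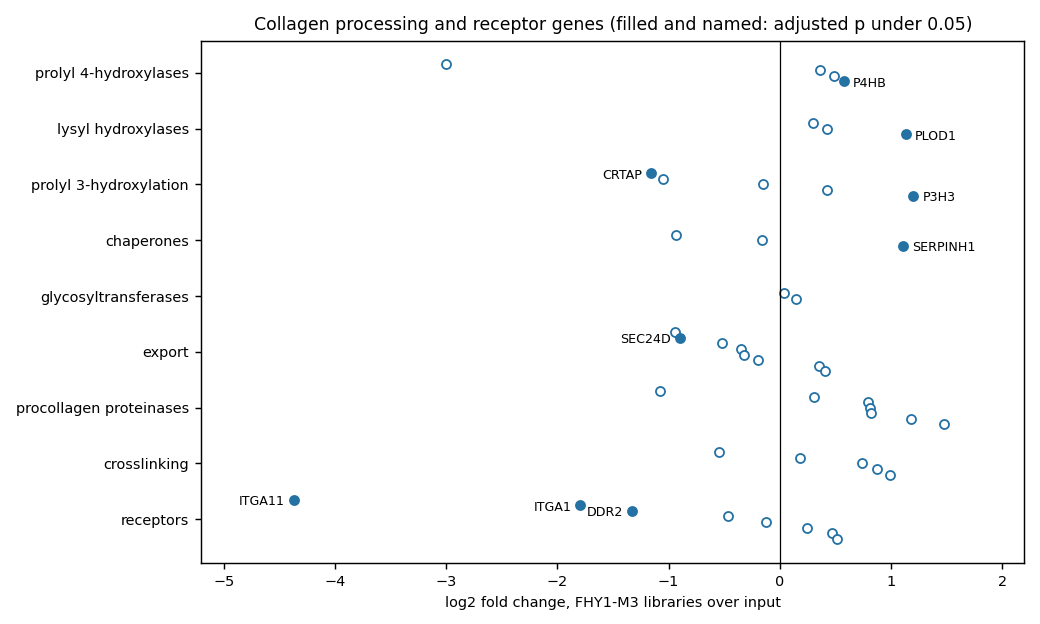
Log2 fold change (horizontal axis) of the 45 tested collagen processing and receptor genes, FHY1-M3 libraries over input, by role; each point is a gene, and filled, named points passed an adjusted p of 0.05. P4HB, PLOD1, P3H3 and SERPINH1 are on the higher side, and CRTAP, SEC24D, DDR2, ITGA1 and ITGA11 on the lower side.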

How the data were processed

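The authors deposited raw counts, whole numbers for each gene symbol and library. The kit was directional, per the labels' protocols. STAR 2.7.10b, cutadapt 4.3, deepTools and hg38 are listed, without a role, per the submitters' processing notes, and how reads were assigned to genes, with which strand setting, is not given in the sources used here. Counts were tested by quasi-likelihood in edgeR 4.0.16 (R 4.3.3), two-sided, after filterByExpr by group and TMM scaling. Adjusted p-values are Benjamini-Hochberg values over all genes tested, with a threshold of 0.05, and every adjusted p is from this test unless DESeq2 is named. Guides were compared in a fit of the 6 FHY1-M3 libraries and input in a fit of all 9. A standard error is the log2 fold change over the root of F. Both procedures were tested on simulated data, with the same spread for every gene and no change set in genes with few counts. Chains with few counts were thus not covered. On halved counts, chi-square per degree of freedom between replicates was 1.81 to 5.12, so none were duplicates.

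The chains given by library are the 12 with the highest mean CPM over the groups, those past the threshold, and the 3 with the smallest p per guide comparison. COL14A1, COL20A1, SEC24D and ITGB1 were named after their values were seen. Processing genes are up to 4 per direction past the threshold, or the 2 with the smallest p. Members, lists and rules were chosen with earlier results of these data known. All 44 chains matched RefSeq (GRCh38.p14) by symbol. Alternatives were median-ratio and library-size scaling, DESeq2 1.42.0, other low-count filters, other sets of libraries in a fit, a replicate block, halved counts, thinning, removal of mitochondrial and histone genes, and leaving out each library.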

Additional observations from a re-analysis of the deposited data

Results flagged for a closer look

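Of 28 genes screened for an outlying library, 3 had 1 FHY1-M3 library far from the other 5. Chance flags about 1 in 20 groups of like, normally spread values. These libraries span all guides, and COL11A2 and P3H2 held few counts, so that rate is only a rough guide. COL6A1 was at 183 CPM in ACTB sgRNA replicate 2 and 122 to 137 CPM in the others. COL11A2 was at 8.60 CPM in non-target sgRNA replicate 1 and 0 to 3.15 CPM in the others. P3H2 was at 17.4 CPM in ACTB sgRNA replicate 2 and 0.525 to 6.08 CPM in the others. The cause was not tested.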

How the results depend on the processing

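Against input, the same 4 chains rose under every alternative that uses all libraries. Without input replicate 2 COL6A2 lost its call, while the number called did not go under 4, so another chain took its place there. COL4A2 gained a call without input replicate 1. For ACTB against non-target sgRNA the 1 called chain became 0 with all 9 libraries in the fit, and 0 to 1 when each library was left out. For ACTB against con sgRNA the count of 0 became 1 without the low-count filter and 1 in DESeq2. A library left alone in its group was assumed to vary like the others. The processing and receptor genes against input numbered 9 (4 higher, 5 lower), 12 with median-ratio factors (3 higher, 9 lower), 12 in DESeq2 (4 higher, 8 lower), 5 after thinning, 7 with a replicate block, 8 to 10 under the others and 6 to 9 without each library. The share of all genes that passed was not taken under these alternatives. The replicate block changed no count of chains (4 against input, 1, 0 and 0 between guides). Same-numbered libraries did not deviate together (correlations of -0.0123 to 0.02). Detected chains in the inputs went to 22 at 5 CPM. Directions were kept in 586 of 602 gene values. COL1A1 against input reversed to -0.0552 with median-ratio factors, -0.0171 at a mean of 5 CPM, -0.0863 in DESeq2, -0.24 with the block and -0.32 after thinning, and lay between -0.38 and 1.23 without each library. COL4A5 was at -0.0261 with the block and -0.14 to 1.013 without each library. COL4A1 was at -0.0336 after thinning and -0.18 to 0.70 without each library, and COL27A1 at -0.38 to 0.12. P4HA3 without ACTB sgRNA replicate 1 gave no value, with 0 counts in both groups. The causes were not tested. Depth limits the inputs most: 3 fragments are 0.284 CPM over the FHY1-M3 libraries and 4.33 CPM over the inputs.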
